A study of Homo sapiens with 3 samples.

Results

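The genes described here are 38 genes listed as histone acetylation writers, erasers and readers, out of 20037 protein-coding genes in the RefSeq table (GRCh38.p14). They were listed by name, with earlier results of these data known, and no measured value entered the rule. They comprise 10 acetyltransferases, 3 nuclear receptor coactivators, 9 zinc-dependent deacetylases, 7 sirtuins, 6 bromodomain genes and 3 corepressor scaffolds. Not all act mainly on histones: HDAC10 is a polyamine deacetylase, and SIRT3 and SIRT5 are mitochondrial enzymes. Relatives of these genes outside the 38 were not analysed here, apart from 84 further subunits and readers of the same complexes. The cells were H1299, an established human line labelled as lung adenocarcinoma, with no treatment or genetic change stated. SP1, a zinc finger transcription factor, and acetylated lysine 27 of histone H3 (H3K27ac, found at active promoters and enhancers) were each mapped by CUT&RUN in 1 library. In CUT&RUN an antibody tethers a nuclease that cuts out the DNA around its target. An IgG control library, also 1, was not analysed here, and no value below has an IgG background beside it.

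Acetyltransferases add acetyl groups to histone lysines, zinc-dependent deacetylases and the NAD-dependent sirtuins remove them, and bromodomain proteins bind the acetylated lysines. H3K27ac itself is written mainly by p300 and CBP, the products of EP300 and CREBBP. SP1 binds the GC box, a short GC-rich DNA element common near transcription starts, and both p300 and HDAC1 are among the proteins known to partner with it. The question put to the data was where SP1 and H3K27ac were called around the listed genes.

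Each value belongs to a called summit, the base where a peak was highest, and its score is −log10 of the caller's p or q (the lists do not say which). The SP1 list held 5570 summits (median score 6.17) and the H3K27ac list 3201 (median score 5.01). A gene end below means either end of a gene's RefSeq span, and a summit at a gene end lies within 1000 bases of it. Read depth is unknown, and with 1 library per antibody there is no replicate and no test. Counts over the 38 genes are therefore given beside the same count over all protein-coding genes, as a description. The labelled cell type could be checked only through summits and not through expression. Of the lung markers NKX2-1, NAPSA, SFTPB, SFTPC, KRT7 and EPCAM, NAPSA alone had an SP1 summit at an end, with a score of 6.69, and KRT7 alone had an H3K27ac summit within 50 kb. SP1 summits within 50 kb numbered 5 at NAPSA and 2 at EPCAM, with 0 at the other lung markers. Of the markers of other cells, none had a summit at an end, PTPRC had 1 H3K27ac summit and COL1A1 had 2 SP1 summits within 50 kb, and CD3D, ALB and SYN1 had neither.

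Stretches of promoter sequence from RefSeq (GRCh38.p14), written 5′ to 3′ on the gene's strand, are shown first, because the results concern SP1 and the element it binds. Capitals mark each match to the GC box, GGGCGG or its complement CCGCCC. From each role group the member with the highest SP1 score within 1000 bases of a start in the RefSeq promoter table was taken, then the next highest, where a stretch outside coding gene spans or a GC box before the start could be shown. HDAC4 and BRD8 are shown over the 250 bases before the start, at chr2:239401650-239401899 (minus strand) and chr5:138178631-138178880 (minus strand). Their SP1 summits scored 14.2 and 11.2. HDAC4 had 1 GC box in this stretch and BRD8 none, although the BRD8 summit lay inside it, 201 bases before the start.
HDAC4: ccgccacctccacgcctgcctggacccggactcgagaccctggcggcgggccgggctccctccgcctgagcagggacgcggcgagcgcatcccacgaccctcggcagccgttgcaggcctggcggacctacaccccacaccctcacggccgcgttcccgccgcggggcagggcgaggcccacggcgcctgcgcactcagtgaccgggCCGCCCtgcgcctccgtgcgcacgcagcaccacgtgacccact
BRD8: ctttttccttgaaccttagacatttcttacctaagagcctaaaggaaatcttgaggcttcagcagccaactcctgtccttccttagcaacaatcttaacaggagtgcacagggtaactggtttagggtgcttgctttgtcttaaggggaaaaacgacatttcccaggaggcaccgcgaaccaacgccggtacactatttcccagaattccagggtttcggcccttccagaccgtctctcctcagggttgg

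For 4 members whose start lies inside a coding span, 30 bases around the GC box nearest the start are shown. These lie at chr10:74826540-74826569 (KAT6B, plus strand), chr15:75451691-75451720 (SIN3A, minus strand), chr9:134068100-134068129 (BRD3, minus strand) and chr6:13574568-13574597 (SIRT5, plus strand). The GC boxes began 48, 18, 91 and 21 bases before the start. The strongest SP1 summit lay 73 bases from this box in KAT6B and 226, 276 and 711 bases from it in BRD3, SIRT5 and SIN3A.
KAT6B: ggagcagcggcgGGGCGGgaccgcgactcg
SIN3A: ggtcgggggagtGGGCGGgatttcccgggt
BRD3: gcggcctcccctGGGCGGccccggcgcggg
SIRT5: aggcaccccgggGGGCGGggcgtgggagac

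Shown for contrast are 2 members with no summit of either library within 50 kb of the gene, chosen after their values were seen. EP300 (chr22:41092342-41092591, plus strand) had no GC box in the 250 bases before its start. SIRT1 (chr10:67884406-67884655, plus strand) had 4.
EP300: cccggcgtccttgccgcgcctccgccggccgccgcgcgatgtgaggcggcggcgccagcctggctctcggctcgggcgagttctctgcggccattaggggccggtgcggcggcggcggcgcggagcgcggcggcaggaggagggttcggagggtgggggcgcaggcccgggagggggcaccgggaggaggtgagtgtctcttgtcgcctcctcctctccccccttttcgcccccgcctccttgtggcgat
SIRT1: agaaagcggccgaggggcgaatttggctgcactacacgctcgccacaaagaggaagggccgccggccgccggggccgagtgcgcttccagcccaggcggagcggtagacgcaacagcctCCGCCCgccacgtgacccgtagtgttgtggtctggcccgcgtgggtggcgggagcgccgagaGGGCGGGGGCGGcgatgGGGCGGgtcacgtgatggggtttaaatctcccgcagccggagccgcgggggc

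SP1 was called at an end of 17 of the 38 genes, or 44.7% (95% Wilson interval 30.1 to 60.3, covering counting error only). Over all protein-coding genes the share was 13.7%. The 17 were spread over several role groups: 5 of 10 acetyltransferases, 5 of 9 zinc-dependent deacetylases, 4 of 7 sirtuins and 3 of 6 bromodomain genes. None of the 3 nuclear receptor coactivators and none of the 3 corepressor scaffolds had one, which for groups this small allows a share of up to 56.1%. The members were named with earlier results of these data known, so the share is a description and no list was drawn to set beside it.

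**Figure D1:**
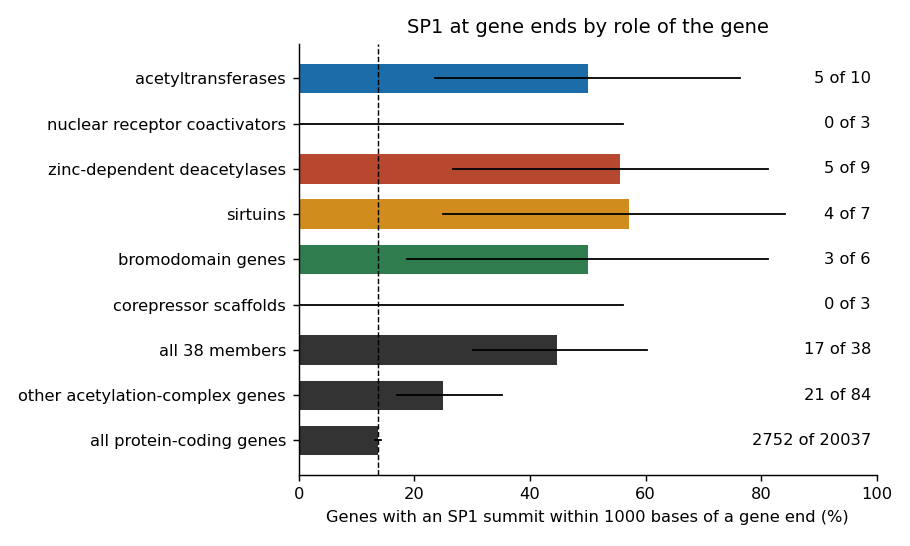
Share of genes (horizontal axis, %) with an SP1 summit within 1000 bases of a gene end, by role, with 95% Wilson intervals as black lines and counts at the right. The dashed line is the share over all protein-coding genes, 13.7%, and the bars of 4 role groups reach from 50% to 57.1%, while 2 groups of 3 genes stand at 0.

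With scores above the upper quartile of the SP1 list, 10 of the 38 members had SP1 at an end (26.3%), against 6.21% of protein-coding genes. The 7 lost were KAT6A, KAT7, HAT1, HDAC1, HDAC11, SIRT6 and BRD7. Member spans ran from 6083 to 915592 bases, and the counts were also read within 3 equal groups of protein-coding genes by span. Among short genes 2 of 5 members had SP1 at an end, against 12.8% of all short genes. Among middle ones it was 9 of 15 (60%) against 17.1%, and among long ones 6 of 18 (33.3%) against 11.3%. The member share was above that of all genes in each group, with only 5 members in the short one.

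Among the writers, 4 of 5 genes of the MYST family, which holds the catalytic subunits of several transcription and DNA repair complexes, had SP1 at an end. The Wilson interval was 37.6 to 96.4, and the share over all protein-coding genes 13.7%. This family is a part of the acetyltransferases and not a role group of its own, and of the other acetyltransferases only HAT1 had one. The summits of KAT8 and KAT7 were shared with a neighbouring coding gene, and those of KAT5 and KAT6A were not. KAT8, the enzyme that acetylates lysine 16 of histone H4, had the highest score at an end of any member, 19.8, at 120 bases from its low-coordinate end on chromosome 16, and a further summit of 10.9 at 560 bases. The first of these ranked 242 of 5570. KAT5, which encodes TIP60, had summits of 12.9 and 5.46 at 320 and 317 bases on either side of its end on chromosome 11. Its start in the promoter table lay 86 bases from the stronger one. KAT7 had a single summit of 7.66, 386 bases downstream of its start, and KAT6A a single one of 5.31, 385 bases from its high-coordinate end on chromosome 8.

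KAT6B, the remaining MYST gene, had no summit at a gene end, but an internal start did. Its strongest SP1 summit, at 74826625 on chromosome 10, scored 19.0 and lay 1689 bases inside the gene span. This was 25 bases downstream of an internal start that the promoter table lists for KAT6B, and a summit of 7.49 followed 648 bases downstream of that start. HAT1, a cytoplasmic and nuclear enzyme that acetylates newly made histone H4, had a score of 6.56 at 204 bases downstream of its start.

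EP300 and CREBBP, known for H3K27 acetylation, and KAT2A and KAT2B, the catalytic subunits of SAGA-type complexes, had no SP1 summit at an end. EP300 had none within 50 kb of the gene, and the nearest lay 141 kb from an end with a score of 20.1. CREBBP had 1 at 7782 bases upstream of its start, with a score of 3.75, which placed it in the lowest 5% of the SP1 list by rank (5312 of 5570). KAT2B had 1 of 4.94 within the gene, 19.6 kb from its end. KAT2A had none within 50 kb, and its nearest was 326 kb away. The coactivators NCOA1, NCOA2 and NCOA3, which bridge nuclear receptors to p300, differed among themselves inside the gene. NCOA2 held 3 SP1 summits, of 15.5, 3.77 and 3.03, all over 50 kb from an end. The promoter table gave no start for NCOA2, so whether any of them lay at an internal start could not be checked. NCOA3 held 1 of 5.61 at 57.5 kb from an end, and NCOA1 had none within 50 kb of the gene.

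The zinc-dependent deacetylases differed within class I and within class IIa. Of class I, HDAC3, the catalytic subunit of the NCOR complex, scored 10.2 at 249 bases upstream of its start. HDAC1, found in the SIN3, NuRD and CoREST complexes, scored 5.48 at 522 bases upstream. HDAC2, its close paralogue, had no SP1 summit within 50 kb, the nearest being 75.9 kb from an end. Of class IIa, which shuttles between nucleus and cytoplasm, HDAC4 scored 14.2 at 171 bases downstream of its start and HDAC5 scored 12.4 at 219 bases from its high-coordinate end on chromosome 17. HDAC7 and HDAC9 had none within 50 kb. HDAC11, the class IV enzyme, scored 7.25 at 271 bases upstream, and HDAC10, a polyamine deacetylase, had none within 50 kb.

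Sirtuins with an SP1 summit included nuclear and mitochondrial members. SIRT3, the main mitochondrial deacetylase, had the highest score at an end in the family, 14.95, at 229 bases downstream of its start. SIRT2, a mostly cytoplasmic enzyme, scored 10.3 at 484 bases upstream. SIRT5, a mitochondrial desuccinylase, scored 10.3 at 255 bases downstream of its nearest start. SIRT6, a chromatin-bound enzyme of telomeres and DNA repair, had the lowest score of the 17 genes, 4.65, but its summit lay 10 bases from a listed start. SIRT4 had a summit of 3.68 at 1222 bases downstream of its nearest start, beyond the limit of 1000, and 1 of 9.35 at 4128 bases outside the gene. SIRT7 had none at an end and 1 of 13.5 at 13.3 kb outside the gene. SIRT1, the founding human member, had none within 50 kb, with the nearest at 367 kb.

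Among the readers, BRD8, a subunit of the TIP60 complex, scored 11.2 at 201 bases upstream of its start. BRD3, of the BET family, scored 10.5 at 317 bases upstream of its start and 205 bases inside its span. BRD7, a subunit of a SWI/SNF complex, scored 6.25 at 297 bases upstream. BRD1, a scaffold of MYST complexes, had its nearest SP1 summit 25.6 kb outside the gene with a score of 6.89, and that summit lay 642 bases from an end of ZBED4. BRD2 and BRD9 had none within 50 kb.

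Of the corepressor scaffolds, SIN3A, which holds HDAC1 and HDAC2, was reached only through an internal start. It had 3 SP1 summits inside the gene, of 8.15, 6.80 and 6.76. The first pair lay 729 and 369 bases upstream of that start and the last 1092 bases downstream of it. A further summit of 7.87 lay 1178 bases beyond its low-coordinate end and 406 bases from an end of MAN2C1. SIN3B and NCOR1 had none within 50 kb, and the nearest were 169 kb and 321 kb from an end.

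**Figure D2:**
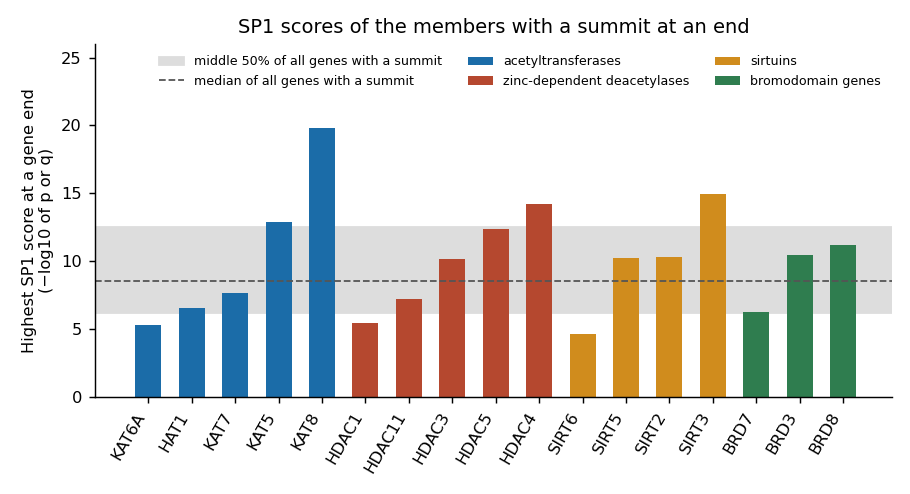
Highest SP1 score at a gene end (vertical axis, −log10 of p or q) for each of the 17 genes with a summit there, coloured by role. The grey band spans the quartiles, 6.21 to 12.6, and the dashed line the median, 8.56, of all protein-coding genes with such a summit. KAT8 stands highest at 19.8 and SIRT6 lowest at 4.65.

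Scores of the 17 genes ran from 4.65 to 19.8 with a median of 10.3, while the 2752 protein-coding genes with such a summit had a median of 8.56. Scores above 10 were reached by 10 of the 17 members and by 38.05% of the 2752 genes. KAT8, SIRT3, HDAC4 and KAT5 exceeded the upper quartile of the 2752 genes, 12.6. KAT6A, HDAC1 and SIRT6 were below the lower quartile, 6.21. None of these summits lay inside a deposited SP1 region.

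Strand and start sites could be read for 33 members from the promoter table. It gave no start for KAT6A, KAT8, NCOA2, HDAC5 and SIRT7. With starts in place of gene ends, 16 of 33 members (48.5%, Wilson interval 32.5 to 64.8) had an SP1 summit within 1000 bases of a listed start, against 14.9% of the 15843 protein-coding genes with one. KAT6B and SIN3A entered this count, and KAT6A, KAT8 and HDAC5 could not be placed. In all 14 genes with both a summit at an end and a listed start, the strongest summit was at the start and not at the far end of the gene. Over all genes that share was 90.9%. These 14 summits lay between 522 bases upstream and 386 bases downstream, with 7 on each side, and over all genes 37.6% of such summits were downstream. Their median distance from the start was 252 bases, and over all genes it was also 252.

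**Figure D3:**
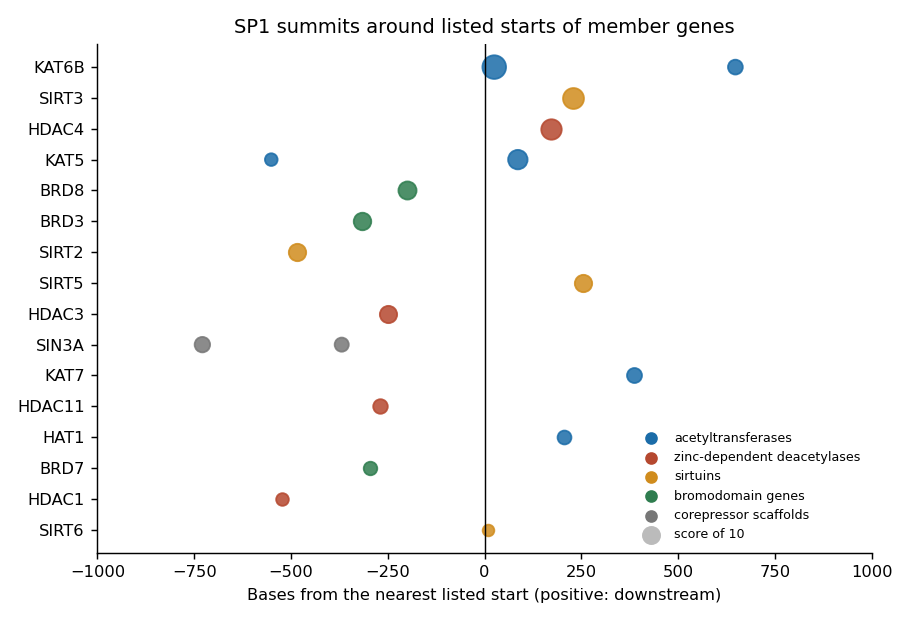
SP1 summits within 1000 bases of a listed start (horizontal axis, bases, positive downstream) for 16 members, 1 gene per line in the order of its highest score, with the area of a point proportional to the score. KAT6B is at the top with a score of 19.0 at 25 bases, SIRT6 is at the bottom with 4.65 at 10 bases, and points fall on both sides of the start.

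Several of these summits also belonged to a neighbouring gene. In 7 of the 17 members the strongest summit lay within 1000 bases of an end of another protein-coding gene, or 41.2%, and over all genes with such a summit this share was 38.7%. The pairs were KAT8 with BCKDK, KAT7 with FAM117A, HDAC3 with RELL2, SIRT2 with NFKBIB, SIRT3 with PSMD13, SIRT6 with ANKRD24 and BRD8 with KIF20A. The SIRT3 summit was 274 bases from an end of PSMD13, a proteasome subunit gene, and the KAT7 summit 43 bases from an end of FAM117A. A summit of this kind cannot be assigned to 1 gene of the pair. With summits at the ends of only 1 coding gene, an alternative added after seeing the data, 10 of the 38 members remained (26.3%), against 8.55% of protein-coding genes. These were KAT5, KAT6A, HAT1, HDAC1, HDAC4, HDAC5, HDAC11, SIRT5, BRD3 and BRD7. Only coding neighbours were counted. The summits of KAT6A, HAT1, HDAC4, HDAC11 and SIRT5 also lay within 1000 bases of an end of a long noncoding RNA gene. How often this holds over all genes with such a summit was not computed.

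The letters of a GC box were searched in 1 window per gene and set beside SP1 at any listed start. The window covered the 300 bases from 250 before to 50 after the start nearest the outer end of the gene, on both strands, with overlapping matches counted. It is therefore not always at the start that carries SP1: in KAT6B and SIN3A the summit was at an internal start, and SIN3A had 1 match in its window but 4 before that internal start. At least 1 GGGCGG was found in 22 of 33 members (66.7%), against 58.3% of all protein-coding genes. It was present in 13 of the 16 members with SP1 at a start and in 9 of the 17 others. Over all protein-coding genes it was present in 78.5% of those with SP1 at a start and in 54.8% of those without. The 3 members with SP1 but no GC box in this window were KAT7, SIRT2 and BRD8.

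**Figure D4:**
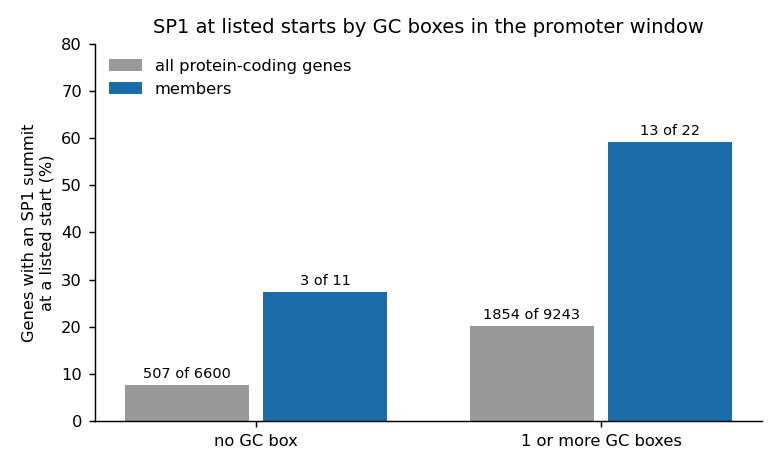
Share of genes (vertical axis, %) with an SP1 summit within 1000 bases of a listed start, for genes without and with a GC box in the 300-base promoter window, with counts above the bars. The members (blue) stand at 27.3% and 59.1%, and all protein-coding genes (grey) at 7.68% and 20.1%.

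The share with SP1 at a start was also read apart for genes without and with a GC box in this window. This splits genes only by the presence of a box, and 3 or more boxes were found in 36.4% of members against 22.0% of all genes. Whether boxes or G and C content account for the member share was not tested. With no GC box, 3 of 11 members had SP1 at a start (27.3%), against 7.68% of all genes. With 1 or more, it was 13 of 22 (59.1%) against 20.1%. Several members had GC boxes and no call: NCOA1 had 10 matches, KAT2B, SIRT1 and HDAC10 had 4 each, and CREBBP and HDAC9 had 3, all with no SP1 summit at a listed start. The windows of members were GC-rich, with a median of 72.7% G and C against 62.7% over all genes. Within the members, those with SP1 had a median of 69.2% and those without 72.7%. Over all protein-coding genes the order was the other way, 65% with SP1 at a start and 62% without.

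H3K27ac was not called at any end of the 38 genes. The count of 0 of 38 allows a share of up to 9.18% (Wilson interval), and over all protein-coding genes the share was 0.848%, so an absence among 38 genes says little. Within 50 kb of the gene span, 6 of 38 members (15.8%, Wilson interval 7.44 to 30.4) had an H3K27ac summit, against 15.7% of protein-coding genes. Without regard to span, the members were thus at the level of all genes. Member spans were longer, with a median of 41214.5 bases against 24115 for all genes. In the long group 3 of 18 members (16.7%, Wilson interval 5.84 to 39.2) had H3K27ac within 50 kb, against 22.5% of long genes. In the middle group it was 2 of 15 (13.3%) against 13.3%, and in the short group 1 of 5 against 11.3%. SP1 within the same 50 kb was found at 26 of 38 members (68.4%), against 41.1% of protein-coding genes.

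The 6 genes with H3K27ac each had 1 summit. HDAC9, whose span is the longest of the members, was the only one with H3K27ac inside the gene, a summit of 6.11 at 18508958 on chromosome 7. That is 2.63% of members, against 5.66% of protein-coding genes, and 1 of 18 long members against 13.7% of long genes. It lay 422 kb from the outer end and 312 bases upstream of the innermost of 5 starts listed for HDAC9. HDAC9 was thereby the only 1 of 33 members with H3K27ac within 1000 bases of a listed start, against 0.757% of protein-coding genes. No SP1 summit lay within 50 kb of HDAC9.

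KAT6B had an H3K27ac summit of 5.06 at 3997 bases outside its low-coordinate end, on the side of its start. It was 5686 bases from the SP1 summit of 19.0 at the internal start. The summit formed a deposited H3K27ac region of 219 bases, ranked 2578 of 2710. SIRT7 had an H3K27ac summit of 6.29 at 13.3 kb outside the gene, and the SP1 summit of 13.5 lay 31 bases from it. This was the closest approach of the libraries near a member, and the next closest was the pair at KAT6B. The nearest other coding gene to this place was ANAPC11, a subunit gene of the anaphase-promoting complex, whose end was 1889 bases away. The deposited regions here ranked 1005 of 2710 for H3K27ac and 175 of 2356 for SP1.

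The other 3 summits were near the limit of 50 kb. CREBBP had 1 of 4.53 at 45.4 kb, SIRT5 1 of 4.17 at 45.1 kb and BRD2 1 of 4.02 at 47.8 kb outside the gene. All scored below the median of the H3K27ac list, 5.01, and each lay nearer to the end of another coding gene than to the member, namely ADCY9, NOL7 and HLA-DOA. The region at BRD2 ranked 245 of 2710, the best of the regions near members, and was 573 bases long.

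**Figure D5:**
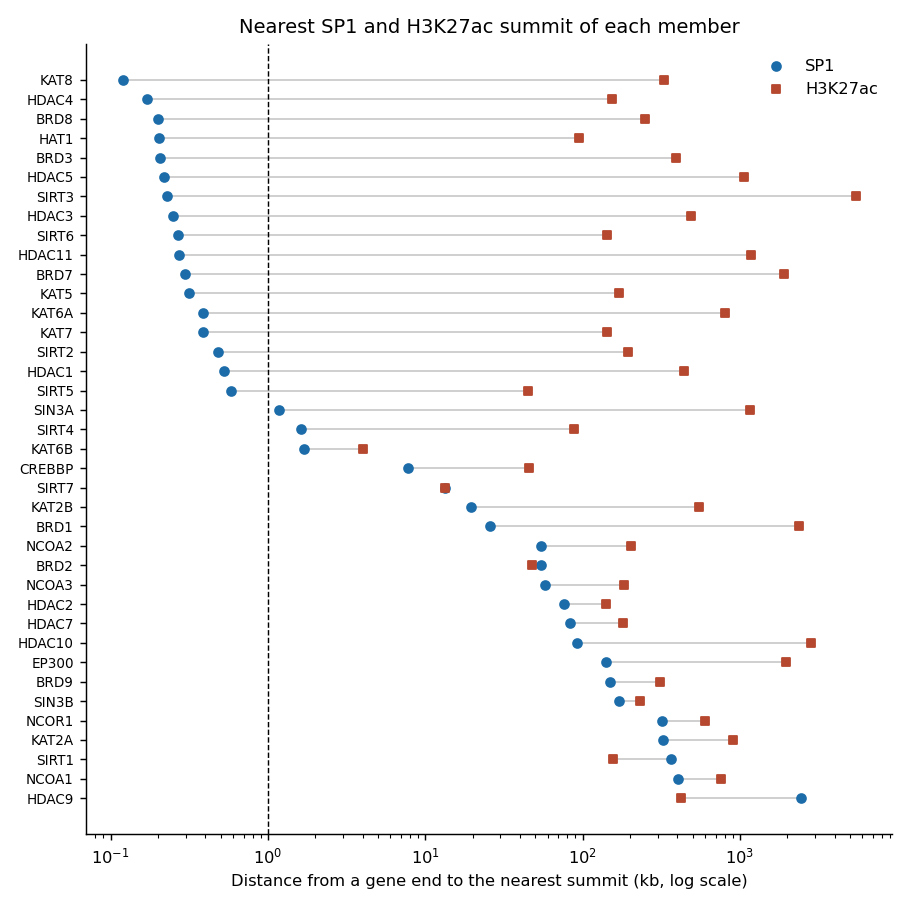
Distance from a gene end to the nearest SP1 summit (blue circles) and the nearest H3K27ac summit (red squares) for each of the 38 members, in kb on a log scale, with the dashed line at 1 kb. SP1 was the nearer in 34 genes, with 17 circles left of the line and no square, and HDAC9, SIRT1, BRD2 and SIRT7 are the exceptions. The count of 34 was not computed over all genes, and the SP1 list is the longer, with 5570 summits against 3201.

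SP1 at an end together with H3K27ac within 50 kb was found at 1 of 38 members, SIRT5 (2.63%, Wilson interval 0.466 to 13.5). Over all protein-coding genes the share was 2.35%. Of genes with SP1 at an end, H3K27ac was within 50 kb of 1 of 17 members and of 471 of 2752 protein-coding genes. The distances that follow describe the members and were not computed over all genes. The median distance from a gene end to the nearest summit was 1.66 kb for SP1 and 280 kb for H3K27ac. From the 17 strongest SP1 summits at member ends, the nearest H3K27ac summit was 85.4 kb away or more, with a median of 392 kb. No summit of either library lay within 50 kb of 10 members: EP300, KAT2A, NCOA1, HDAC2, HDAC7, HDAC10, SIRT1, BRD9, SIN3B and NCOR1. The share without any was 26.3% of members and 50.9% of protein-coding genes. Weaker signal that the caller did not list cannot be seen in these files.

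The other subunits and readers of acetylation complexes stood between the members and all genes for SP1. SP1 was called at an end of 21 of these 84 (25%, Wilson interval 17.0 to 35.2). The 4 with the highest scores were SGF29 with 26.5 and SUPT3H with 15.7, both of the SAGA complex that carries KAT2A or KAT2B, BAZ1B with 20.4, a bromodomain kinase of chromatin remodelling, and ING1 with 15.6, a reader in the SIN3 complex. RBBP4 and RBBP7, histone chaperones shared by HDAC1 and HDAC2 complexes, scored 11.7 and 12.4. No gene of the 84 had H3K27ac at an end, and 11 had it within 50 kb (13.1%). The 4 highest H3K27ac scores there were 7.34 at EP400 and 6.60 at TRRAP, both of the TIP60 complex and both inside the gene, 5.99 inside SUPT3H, and 6.89 at 42.2 kb from EPC2.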

How the data were processed

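H1299 cells were profiled by CUT&RUN, and the summit and region lists of 2 of the 3 libraries were used. The authors deposited a −log10 score per summit, from p or q, and a rank per region. The build hg38 and the tools cutadapt 2.5 and deepTools 3.4.1 are named, with no role, per the submitters' processing notes. For the aligner, the caller's settings and its control: not given in the sources used here. Depth is unknown.

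Summits were joined to gene spans and listed starts of RefSeq (GRCh38.p14) with Python 3.11.15 and pandas 2.3.3, within 1000 bases of a gene end, within 1000 bases of a start or within 50 kb of a span. All coordinates are 1-based. All 84 further genes matched by symbol or synonym. Intervals are 95% Wilson intervals. No test was run. The joins and the GC box search were tested on simulated data, where 200 of 200 planted genes were found. The members, lists and windows were chosen with earlier results of these data known. Genes named are all members, and of the further genes the 4 highest for each library, plus RBBP4 and RBBP7, which were chosen after their values were seen. Alternatives covered other distances, stricter scores, starts, regions and motif forms.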

Additional observations from a re-analysis of the deposited data

How the results depend on the processing

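No paired analysis was possible because each antibody has a single library. Of 51 values under an alternative, 25 kept within 1.5 times the main count or within the interval of the main share, and 26 moved. The 80 highest scores of single genes that could be recomputed did not change. A gene left without a summit under an alternative gave no score there and was not counted. A stricter score limit cannot change the highest score of a gene that keeps a summit, so this says little. Fewer or more summits move a count by construction, and other causes were not tested.

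SP1 at a member end was called in 15 genes within 500 bases (without HDAC1 and SIRT5) and 20 within 2500 bases (with KAT6B, SIN3A and SIRT4). It was called in 14 with scores above the median, 10 above the upper quartile and 10 with summits at the ends of only 1 coding gene, an alternative chosen after seeing the data. The share of all protein-coding genes was then 11.4%, 15.8%, 10.4%, 6.21% and 8.55%, and 14.9% at listed starts. Above the upper quartile, SP1 summits at member ends numbered 11, and further complex genes with SP1 at an end 10 of 84 (11.9%). Members with SP1 within 50 kb then numbered 15 of 38. The share of all protein-coding genes with SP1 within 50 kb was not computed at this score, so this count has no value to be read against.

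H3K27ac was within 20 kb of 3 members (3 summits). Within 50 kb, scores above the median left 3 members (3 summits) and scores above the upper quartile 2 (2 summits). The share of protein-coding genes was 9.91% within 20 kb, 24% within 100 kb, 8.30% above the median, 4.09% above the upper quartile and 12.5% with regions. Further complex genes with H3K27ac within 50 kb fell to 7 above the median and 4 above the upper quartile. H3K27ac at a member end stayed at 0 in the 4 alternatives run. Only the distance of 2500 bases could have raised it, since the others used fewer summits or a shorter distance. Members with 2 or more GC boxes numbered 13 (39.4%, against 36.6% of all genes), and 9 had the longer form GGGGCGGGG (27.3% against 22.1%).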

Other observations

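Other promoter elements were searched in the same 300-base windows of 33 members. The CCAAT box, bound by NF-Y and searched as CCAAT on both strands, was found in 7 members (21.2%) and in 36.4% of all protein-coding genes. Among members it was in 5 of 16 with SP1 at a start (HDAC1, HAT1, SIN3A, SIRT6 and SIRT2) and in 2 of 17 without (SIN3B and HDAC10). Over all genes these shares were 44.2% and 35.0%. The GT box GGGTGG, a weaker SP1 family element, was in 15 members (45.5%) and in 37.2% of all genes. It was in 5 of the 16 members with SP1 at a start and in 10 of the 17 without, and over all genes in 39.4% and 36.8%. The element of NRF1, a regulator of mitochondrial and housekeeping genes, was in 2 members, SIRT5 and SIRT6, both with SP1 at a start, and in 1.77% of all genes. The cAMP response element TGACGTCA was in SIRT4 alone, and in 2.56% of all genes. A match gives letters in a window and not a bound site.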
